A study of Mus musculus with 24 samples.

Results

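The genes described here are those of the tumour necrosis factor (TNF) superfamily and of the TNF receptor superfamily, taken as every named array feature whose symbol is Tnf or starts with Tnfsf or Tnfrsf and a number. The rule found 30 genes among 22206 gene features, 10 ligands and 20 receptors, each with 1 feature. The ligands were Tnf, Tnfsf4, Tnfsf8, Tnfsf9, Tnfsf10, Tnfsf11, Tnfsf13b, Tnfsf14, Tnfsf15 and Tnfsf18. The receptors were Tnfrsf1a, Tnfrsf1b, Tnfrsf4, Tnfrsf8, Tnfrsf9, Tnfrsf10b, Tnfrsf11a, Tnfrsf11b, Tnfrsf12a, Tnfrsf13b, Tnfrsf13c, Tnfrsf14, Tnfrsf17, Tnfrsf18, Tnfrsf19, Tnfrsf21, Tnfrsf22, Tnfrsf23, Tnfrsf25 and Tnfrsf26. Tnfsf12 and Tnfsf13 were not analysed here.

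TNF family ligands are trimers, made on the cell surface and in several cases shed from it, that cluster receptors on the same or a neighbouring cell. Receptors with a cytoplasmic death domain can recruit caspases, most others recruit TRAF adaptors, and both kinds can activate NF-kB, the transcription factor that in turn drives many inflammatory genes. Macrophages are a main source of TNF after contact with lipopolysaccharide (LPS), a cell wall component of Gram-negative bacteria that is sensed by Toll-like receptor 4.

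RAW 264.7, a mouse macrophage-like cell line kept for a limited number of passages, was given proanthocyanidins (PAC), polymeric flavan-3-ols purified from grape pomace, at 15 µg/mL, and 30 min later LPS at 500 ng/mL or a mock treatment, with RNA taken after 6 h. The PAC came as a low, a medium and a high fraction by mean degree of polymerization, all at the same mass concentration. Each of the 8 groups had 3 arrays: low, medium and high PAC + LPS, LPS alone, low, medium and high PAC, and the mock-treated control. All groups share the 1 cell line, and no source used here tells whether the replicates were separate cultures, so the p-values cover the spread among the arrays at hand, which may be technical.

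Whole-transcript arrays (Clariom S) gave 1 log2 signal per gene and array, on which a difference of 1 is a 2-fold difference in signal. Array medians lay between 4.86 and 5.06, and replicates of a group correlated at 0.989 to 0.994. By their mean over all 24 arrays, the 8 measured macrophage markers were all above the silent level defined below, against 1 of 4 T cell, 0 of 4 B cell, 1 of 4 fibroblast, 0 of 5 epithelial, 0 of 4 endothelial and 1 of 5 neutrophil markers. By group means, 1 of the 4 endothelial markers was also above it in at least 1 group (Kdr, at 4.86 in high PAC cells), and the other counts were the same. The neutrophil marker above it was S100a8, at 12.94 in LPS and 4.55 in control cells, while S100a9, Ngp, Elane and Mpo lay at 4.12, 1.70, 2.68 and 3.47 in LPS cells. The mean of the neutrophil list lay between 3.26 and 5.08 over the 8 groups. Resting arrays differed in Il1b, the interleukin 1 beta gene, which stood at 9.39 in medium PAC replicate 3 and at 11.92 and 9.62 in high PAC replicates 2 and 3, against 4.86 to 6.40 in the other resting arrays. Tnf in these 3 arrays was 14.76, 14.77 and 14.52, and in the remaining arrays of their groups it was 14.57, 14.42 and 14.61.

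Olfactory, vomeronasal and trace amine receptor genes, which macrophages are not known to use, served as silent features. The 95th percentile of their mean signals over 1427 features, 1091 of them olfactory receptors, was 4.74 and is called the silent level. Of the 30 genes, 21 had a group mean above it in at least 1 group, 7 ligands and 14 receptors, and 19 did at the 99th percentile of 5.48. Of all 22206 gene features, 12710 had a group mean above the silent level. The level comes from means over 24 arrays, while each gene is judged by its highest mean of 3 arrays. Silent genes can therefore pass it more often than the percentile implies. Among the 30 genes, the number above the silent level was 15 in control, 15 in low PAC, 16 in medium PAC and 15 in high PAC cells, and 19 in LPS, 20 in low PAC + LPS, 19 in medium PAC + LPS and 20 in high PAC + LPS cells.

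The 15 genes above the silent level in every group were Tnf, Tnfsf9, Tnfsf13b and Tnfsf14 among the ligands and Tnfrsf1a, Tnfrsf1b, Tnfrsf9, Tnfrsf10b, Tnfrsf11a, Tnfrsf12a, Tnfrsf14, Tnfrsf22, Tnfrsf23, Tnfrsf25 and Tnfrsf26 among the receptors. Of these, Tnfrsf25 (group means 4.86 to 5.60), Tnfsf13b (4.97 to 5.66) and Tnfsf14 (5.13 to 6.22) lay near it, in some groups below the 99th percentile of 5.48. Another 6 were above the silent level in some groups. Tnfsf10 and Tnfsf15 were above it in the 4 groups with LPS, as was Tnfrsf8. Tnfsf4 was above it in LPS, low PAC + LPS and high PAC + LPS cells, Tnfrsf13c in the 3 groups given a PAC with LPS, and Tnfrsf17 in medium PAC cells alone, at a mean of 4.75. The other 9 (Tnfsf8, Tnfsf11, Tnfsf18, Tnfrsf4, Tnfrsf11b, Tnfrsf13b, Tnfrsf18, Tnfrsf19 and Tnfrsf21) were in no group above it, with the highest group mean at 4.60, for Tnfrsf18.

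Known ligand and receptor partners were then set side by side, from a list that is not complete. It leaves out Tnfsf10 with Tnfrsf22 and Tnfrsf23, the receptors described below as binding it. Of the 14 listed pairs with both partners measured, 4 had both above the silent level in every group, 4 in some groups and 6 in none. The 4 were Tnf with each of its receptors Tnfrsf1a and Tnfrsf1b, Tnfsf9 (4-1BB ligand) with Tnfrsf9 (4-1BB), and Tnfsf14 (LIGHT) with Tnfrsf14 (HVEM). Tnfsf10 (TRAIL) with its death receptor Tnfrsf10b and Tnfsf15 (TL1A) with Tnfrsf25 (DR3) were both above it in the 4 groups with LPS. Among these partners Tnfsf14 and Tnfrsf25 lay near the silent level, with lowest group means of 5.13 and 4.86. Tnfsf4 (OX40 ligand) reached 7.49 in LPS cells, while Tnfrsf4 (OX40) stayed at or below 4.23 in every group mean. Tnfrsf11a (RANK), the receptor through which osteoclasts are formed, had a mean of 12.61 in control cells, while its ligand Tnfsf11 (RANKL) had none above 3.17. Levels of different genes come from different probes and are not ranked against each other here.

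RefSeq promoter windows (build GRCm38.p6, 250 bases before to 50 after each start site) were given for 24 of the 30 genes, in 28 windows. They were searched on both strands for the NF-kB consensus, for the AP-1 motif TGANTCA and for the TATA box TATAAA, the last 2 added after the signals were known. The windows of 4 genes with large changes under LPS are printed 5′ to 3′ with matches in capitals, to show the annotated start regions of genes that rose. Which start was used was not measured. Tnf lies on chr17:35201958-35202257 (minus strand), Tnfrsf9 on chr4:150927749-150928048 (plus strand, the second of its 2 windows, chosen because it holds matches while the first holds none), Tnfrsf1b on chr4:145246821-145247120 (minus strand) and Tnfsf15 on chr4:63745010-63745309 (minus strand).
Tnf: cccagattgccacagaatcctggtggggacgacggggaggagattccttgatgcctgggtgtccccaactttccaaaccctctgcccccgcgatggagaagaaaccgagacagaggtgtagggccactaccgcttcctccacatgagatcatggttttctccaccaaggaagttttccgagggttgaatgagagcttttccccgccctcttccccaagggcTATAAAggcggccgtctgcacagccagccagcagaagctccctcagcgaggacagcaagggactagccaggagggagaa
Tnfrsf9: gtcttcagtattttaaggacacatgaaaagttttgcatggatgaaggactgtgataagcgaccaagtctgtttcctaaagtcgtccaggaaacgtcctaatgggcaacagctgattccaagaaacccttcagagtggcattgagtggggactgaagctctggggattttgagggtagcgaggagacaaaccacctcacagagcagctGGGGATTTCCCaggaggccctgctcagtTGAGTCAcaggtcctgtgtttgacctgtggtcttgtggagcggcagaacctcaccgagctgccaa
Tnfrsf1b: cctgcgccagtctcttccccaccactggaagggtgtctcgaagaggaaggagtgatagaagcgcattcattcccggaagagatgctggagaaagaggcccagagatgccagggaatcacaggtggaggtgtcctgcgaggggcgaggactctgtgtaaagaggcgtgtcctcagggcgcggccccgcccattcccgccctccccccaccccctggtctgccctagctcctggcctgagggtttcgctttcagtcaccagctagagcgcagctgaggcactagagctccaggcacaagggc
Tnfsf15: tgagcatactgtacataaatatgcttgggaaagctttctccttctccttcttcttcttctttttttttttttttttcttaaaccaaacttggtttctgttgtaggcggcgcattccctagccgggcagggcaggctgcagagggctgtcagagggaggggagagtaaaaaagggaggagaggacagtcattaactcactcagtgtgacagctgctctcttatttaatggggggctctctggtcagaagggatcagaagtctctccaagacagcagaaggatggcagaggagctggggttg

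The capitals in the Tnf window are a TATA box starting at -29 from the start site. In the Tnfrsf9 window the first run of capitals holds overlapping matches to the NF-kB consensus at -43 and -42, and the second is an AP-1 motif at -15. The windows of Tnfrsf1b and Tnfsf15 held none of the 3 motifs, which says only that these letters are absent there. The NF-kB consensus was matched in 3 of the 28 windows, those of Tnfrsf8, Tnfrsf9 and Tnfrsf25, and in 8.46% of 32851 RefSeq windows. The AP-1 motif was matched in 5 of the 28 and in 7.81% of all windows, and the TATA box in 5 of the 28 and in 13.6%. The 5 AP-1 windows belong to 4 genes, as both windows of Tnfsf13b overlap and hold the same site. A match is a stretch of letters and not a measured binding site.

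The first comparison, LPS against control, asked how the family responds to the stimulus. In LPS cells 8 of the 30 genes were higher and 6 lower, among all features 13.5% were higher and 20.3% lower, and the remaining 16 did not pass the test. The median difference of the 30 was 0.12, against 0.03 over all features. All 5 ligands that passed were higher (Tnf, Tnfsf4, Tnfsf9, Tnfsf10 and Tnfsf15), and the 9 receptors that passed divided into 3 higher (Tnfrsf1a, Tnfrsf1b and Tnfrsf9) and 6 lower (Tnfrsf11a, Tnfrsf11b, Tnfrsf12a, Tnfrsf22, Tnfrsf23 and Tnfrsf26). Signals in bulk RNA do not tell a change in every cell from a change in a share of the cells.

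**Figure D1:**
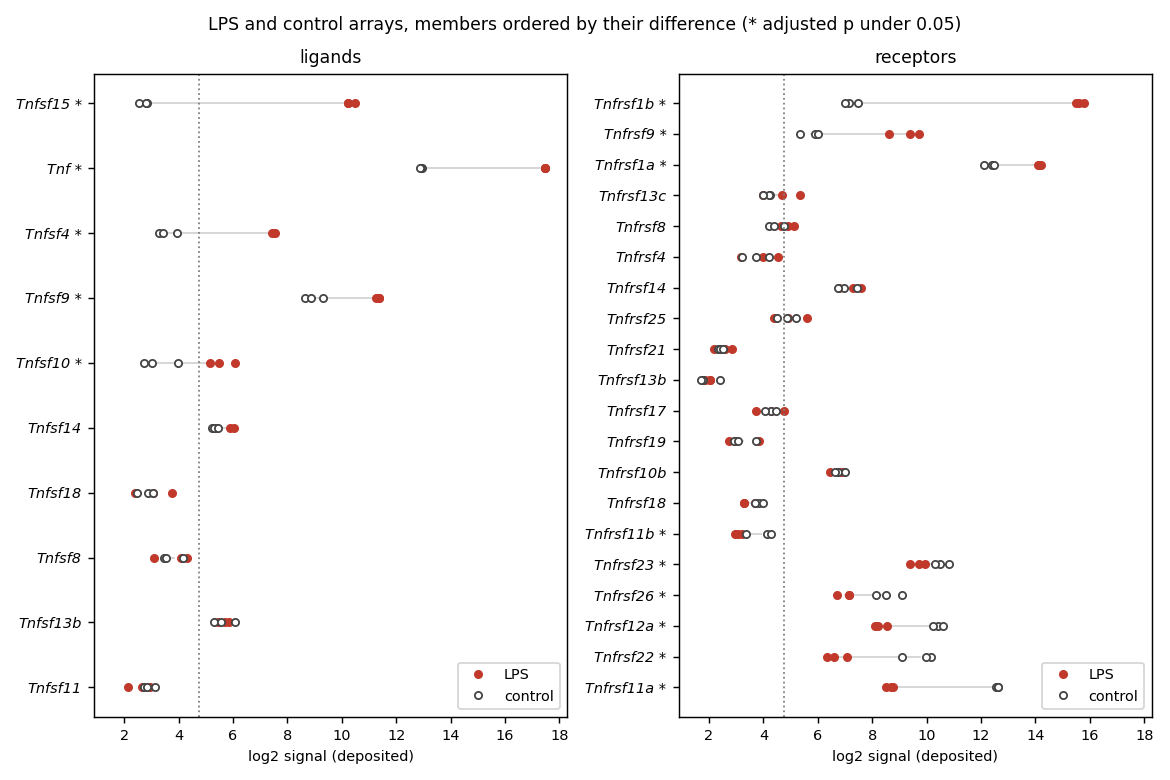
Log2 signal of the 10 ligands (left) and 20 receptors (right) in the 3 LPS arrays (filled) and the 3 control arrays (open), ordered by the difference of the means, with the silent level of 4.74 dotted and genes at an adjusted p under 0.05 starred. Among the receptors Tnfrsf1b shows the widest gap, with LPS arrays at 15.48 to 15.79 and control arrays at 6.99 to 7.46.

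Tnf, the founding cytokine of the family, stood at 17.48, 17.48 and 17.47 in LPS arrays, against 12.93, 12.91 and 12.86 in control arrays. The arrays of each group lay within 0.1 of each other and the groups were far apart, with a difference of 4.58 (95% interval 4.34 to 4.81, adjusted p = 2.9e-17). Tnfsf15, a costimulator of T cells through DR3, stood at 10.49, 10.22 and 10.22 with LPS, against 2.53, 2.84 and 2.81 in control, where it was at silent levels. The measured difference was 7.58 (adjusted p = 5.1e-15), and counted from the silent level it was at least 5.57. Tnfsf4, which costimulates T cells through OX40, stood at 7.43, 7.54 and 7.50 with LPS and at 3.29, 3.43 and 3.93 in control, a difference of 3.94 (adjusted p = 1.1e-09) or at least 2.75 from the silent level.

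Tnfsf9, whose receptor is a costimulator on activated T and NK cells, was already present in control cells and rose by 2.37 (SE 0.20, adjusted p = 5.1e-09), with 11.38, 11.24 and 11.35 in LPS arrays and 8.65, 9.32 and 8.88 in control arrays. Tnfsf10, which can trigger apoptosis through its death receptor, had 5.14, 6.07 and 5.48 in LPS arrays and 2.74, 3.96 and 3.03 in control arrays. It was low in absolute signal in both, and its difference of 2.32 (adjusted p = 1e-05) is at least 0.82 from the silent level. The ligands Tnfsf13b (BAFF, a B cell survival factor) and Tnfsf14 (a T cell costimulator) did not pass the test, at 5.66 and 5.77 in LPS cells and 5.65 and 5.32 in control cells.

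The 2 TNF receptors both rose. Tnfrsf1b (TNFR2), which lacks a death domain and signals through TRAF2, had 15.48, 15.79 and 15.61 in LPS arrays and 7.15, 6.99 and 7.46 in control arrays. Its difference of 8.42 (95% interval 8.12 to 8.72, adjusted p = 3.6e-19) was the widest of the 30 genes, and no LPS array came near a control array. Tnfrsf1a (TNFR1), the death domain receptor carried by most cells, had 14.19, 14.15 and 14.10 with LPS and 12.40, 12.46 and 12.11 without it. It was high in both states and differed by 1.82 (95% interval 1.51 to 2.13, adjusted p = 2.2e-09). Tnfrsf9, the third receptor that rose, had 8.62, 9.73 and 9.38 in LPS arrays and 5.88, 5.34 and 5.99 in control arrays, a difference of 3.51 (SE 0.27, adjusted p = 7.7e-10).

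Of the receptors that fell, Tnfrsf11a fell furthest, to 8.75, 8.68 and 8.51 in LPS arrays, against 12.54, 12.64 and 12.64 in control arrays. The gap of -3.96 (95% interval -4.34 to -3.59, adjusted p = 1.9e-13) was many times the spread within either group. Tnfrsf12a, the receptor of TWEAK known as Fn14, had 8.20, 8.10 and 8.53 in LPS arrays and 10.42, 10.25 and 10.60 in control arrays (difference -2.15, adjusted p = 9.6e-09). Tnfrsf22, Tnfrsf23 and Tnfrsf26 form a cluster of mouse receptor genes on chromosome 7, with gaps of 7.0 kb and 16.1 kb between neighbours. Tnfrsf22 and Tnfrsf23 encode receptors that bind TRAIL in mice without a death domain, and as close paralogues their probes may share some signal. All 3 fell with LPS. Tnfrsf22 had 6.32, 7.07 and 6.58 in LPS arrays and 10.16, 9.98 and 9.11 in control arrays (difference -3.10, adjusted p = 1.8e-07). Tnfrsf26 had 7.16, 6.71 and 7.14 in LPS arrays, against 9.08, 8.50 and 8.14 in control arrays (difference -1.57, adjusted p = 0.00062). Tnfrsf23 fell least, with 9.72, 9.39 and 9.94 in LPS arrays and 10.83, 10.49 and 10.32 in control arrays (difference -0.86, adjusted p = 0.00069).

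Of these 14 genes, 13 kept an adjusted p under 0.05 whichever of the 6 arrays was left out. The exception was Tnfrsf11b (osteoprotegerin, the soluble decoy receptor of RANKL), whose means of 3.08 in LPS and 3.93 in control cells both lay below the silent level, and whose adjusted p of 0.012 became 0.058 without control replicate 1 and 0.078 without control replicate 3. Among the receptors that did not pass, Tnfrsf10b (6.75 in LPS and 6.80 in control cells), Tnfrsf14 (7.23 and 7.05) and Tnfrsf25 (4.97 and 4.86) were above the silent level in both groups.

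**Figure D2:**
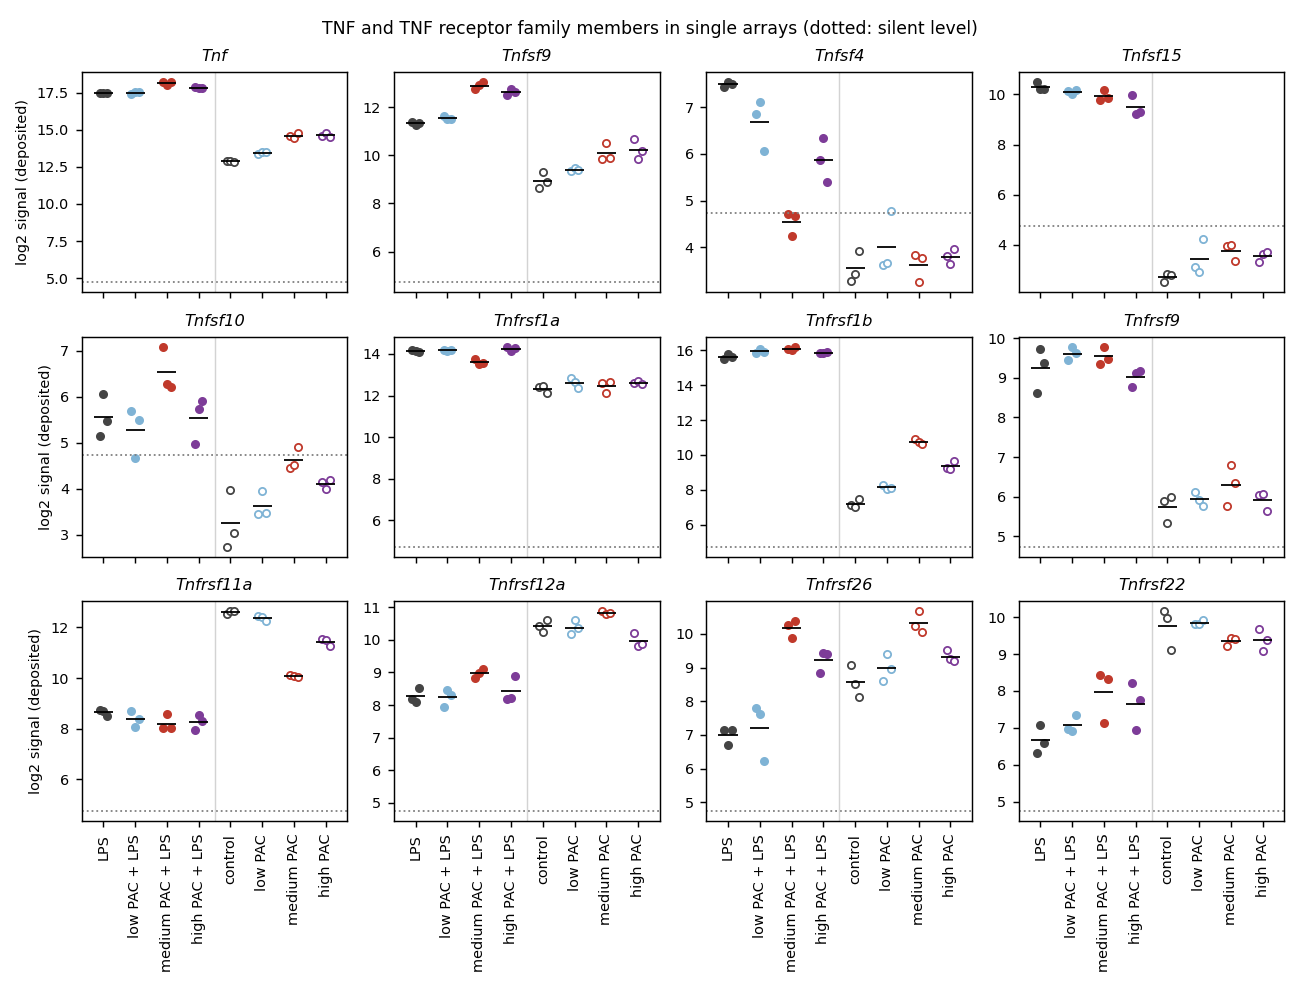
Log2 signal of 12 family members in all 24 arrays, with the 4 groups given LPS (filled) left of the 4 resting groups (open), each point 1 array, the bar the group mean and the dotted line the silent level of 4.74. Tnfrsf1b and Tnfrsf11a shift in opposite directions in resting cells given medium or high PAC, and Tnfsf4 is high with LPS alone and at 4.24 to 4.72 in medium PAC + LPS arrays.

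The next comparisons asked what each PAC fraction did in cells without LPS. Medium PAC had the most calls, 6 genes higher and 1 lower (5.03% of all features were higher and 6.28% lower). High PAC had 3 higher and 1 lower (3.21% and 3.64% of all features), and low PAC 1 higher and 0 lower (0.0315% and 0.00450%). Tnf, Tnfrsf1b and Tnfsf9 were higher and Tnfrsf11a lower with both medium and high PAC, comparisons that share the control arrays. In medium PAC cells 5 of the 8 macrophage markers were lower too, and in high PAC cells 2. Whether that bears on the receptor signals was not tested.

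Tnfrsf1b stood at 8.26, 8.06 and 8.07 in low PAC arrays, at 10.93, 10.74 and 10.63 in medium PAC arrays and at 9.27, 9.21 and 9.62 in high PAC arrays, against 7.15, 6.99 and 7.46 in control arrays. No array of the 4 groups overlapped another group, and medium PAC was the highest. The differences from control were 0.93 (adjusted p = 0.011), 3.56 (95% interval 3.26 to 3.86, adjusted p = 5.8e-13) and 2.17 (95% interval 1.87 to 2.47, adjusted p = 3.5e-09). The low PAC call was lost without control replicate 1 or 2 or without any low PAC replicate (adjusted p = 0.059 to 0.11), and it was lost when only these 2 groups were fitted (adjusted p = 0.61).

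Tnf stood at 14.57, 14.42 and 14.76 in medium PAC arrays and at 14.61, 14.77 and 14.52 in high PAC arrays, against 12.93, 12.91 and 12.86 in control arrays. It was higher by 1.68 with medium PAC (95% interval 1.45 to 1.92, adjusted p = 1.1e-09) and by 1.73 with high PAC (95% interval 1.50 to 1.96, adjusted p = 2.4e-09). In low PAC arrays it stood at 13.35, 13.54 and 13.51, also above every control array, but the difference of 0.57 (95% interval 0.33 to 0.80) missed the threshold with an adjusted p of 0.099. Tnfsf9 stood at 9.83, 10.51 and 9.88 with medium PAC and at 10.68, 9.84 and 10.18 with high PAC, against 8.65, 9.32 and 8.88 in control. Its differences were 1.12 (adjusted p = 0.00064) and 1.28 (adjusted p = 0.0003).

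Tnfrsf11a had 10.12, 10.08 and 10.06 in medium PAC arrays and 11.53, 11.49 and 11.25 in high PAC arrays, against 12.54, 12.64 and 12.64 in control arrays. It fell by 2.52 on the log2 scale with medium PAC (95% interval -2.89 to -2.15, adjusted p = 2.7e-09) and by 1.19 with high PAC (adjusted p = 0.00017), and low PAC arrays (12.44, 12.40 and 12.25) lay just below control. Tnfrsf26 stood at 10.22, 10.67 and 10.06 with medium PAC, against 9.08, 8.50 and 8.14 in control, a difference of 1.74 (SE 0.33, adjusted p = 0.00097). With high PAC it was 9.52, 9.25 and 9.18, and the difference of 0.74 missed the threshold (adjusted p = 0.24). These calls of Tnf, Tnfsf9, Tnfrsf1b, Tnfrsf11a and Tnfrsf26 for medium PAC, and of the first 4 for high PAC, held whichever array was left out. The medium PAC calls also held without the 3 arrays high in Il1b. That setting leaves high PAC with replicate 1 alone, so its high PAC calls are not used.

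The other 2 genes that passed with medium PAC, Tnfsf10 (mean 4.63 in medium PAC and 3.24 in control cells, adjusted p = 0.0091) and Tnfsf15 (3.76 and 2.73, adjusted p = 0.014), lay below the silent level in both groups. The first lost its call without control replicate 1 or medium PAC replicate 3 (adjusted p = 0.064 and 0.05), and without the 3 arrays high in Il1b (adjusted p = 0.073). The second lost it without control replicate 1 or medium PAC replicate 1 or 2 (adjusted p = 0.064 to 0.067).

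With LPS, the question was how the same fractions given beforehand change the response. Against LPS alone, medium PAC + LPS cells had 9 genes higher and 2 lower (7.17% of all features were higher and 7.47% lower), and high PAC + LPS cells had 5 higher and 1 lower (4.34% and 5.74%). Low PAC + LPS cells had 0 higher and 0 lower by limma (0.122% and 0.0270% of all features), with 4 genes at an unadjusted p under 0.05. The share of all features at that unadjusted p was not counted, so nothing is drawn from the 4. The genes called with both medium and high PAC were Tnf, Tnfsf9 and Tnfrsf26, all higher, and Tnfsf4, lower, and these comparisons share the LPS arrays. The median difference of the 30 genes was 0.17 with low, 0.32 with medium and 0.19 with high PAC, against no more than 0.01 over all features. In medium PAC + LPS cells S100a8 was at 7.25, against 12.94 with LPS alone (adjusted p = 2.3e-10), and 4 of the 8 macrophage markers were lower as well, and the part of these markers in the values below was not tested.

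Tnfsf4 showed the largest fall. It stood at 6.85, 7.11 and 6.07 in low PAC + LPS, at 4.72, 4.24 and 4.67 in medium PAC + LPS and at 5.87, 6.35 and 5.39 in high PAC + LPS arrays, against 7.43, 7.54 and 7.50 in LPS arrays. All 3 medium PAC + LPS arrays lay below the silent level and every array of the 3 PAC groups lay below every LPS array. The difference was -2.95 with medium PAC (95% interval -3.59 to -2.31, adjusted p = 4.4e-07), a fall of at least 2.75 when counted to the silent level, and -1.62 with high PAC (95% interval -2.26 to -0.98, adjusted p = 0.0012). With low PAC it was -0.81 and did not pass (adjusted p = 0.51).

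Tnfrsf26 showed the largest rise. It had 10.26, 9.88 and 10.37 in medium PAC + LPS and 8.85, 9.42 and 9.41 in high PAC + LPS arrays, against 7.16, 6.71 and 7.14 in LPS arrays. The differences were 3.17 (95% interval 2.47 to 3.86, adjusted p = 4.7e-07) and 2.22 (95% interval 1.53 to 2.91, adjusted p = 0.0001). Low PAC + LPS arrays (7.80, 7.62 and 6.24) lay on both sides of the LPS arrays. Its neighbours in the cluster were also higher with medium PAC, Tnfrsf22 at 8.43, 7.14 and 8.33 and Tnfrsf23 at 10.50, 10.07 and 10.57, against 6.32, 7.07 and 6.58 and 9.72, 9.39 and 9.94 in LPS arrays. These calls were weaker: Tnfrsf22 (1.31, adjusted p = 0.0098) lost its call without LPS replicate 1 or medium PAC + LPS replicate 1 or 3 (adjusted p = 0.056 to 0.065), and Tnfrsf23 (0.70, adjusted p = 0.012) without LPS replicate 2 or medium PAC + LPS replicate 1 or 3 (adjusted p = 0.053 to 0.079). With only the compared groups fitted, both calls were lost (0.088 for Tnfrsf22 and 0.11 for Tnfrsf23).

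Tnfsf9 had 12.73, 12.91 and 13.04 in medium PAC + LPS and 12.49, 12.73 and 12.62 in high PAC + LPS arrays, against 11.38, 11.24 and 11.35 in LPS arrays. Both groups were clear of LPS alone, by 1.57 (95% interval 1.14 to 1.99, adjusted p = 8.4e-06) and 1.29 (95% interval 0.86 to 1.72, adjusted p = 0.00019). Tnf was also higher, with 18.22, 18.05 and 18.23 in medium PAC + LPS and 17.88, 17.84 and 17.83 in high PAC + LPS arrays, against 17.48, 17.48 and 17.47 in LPS arrays. The differences were small, 0.69 for medium PAC (95% interval 0.46 to 0.92, adjusted p = 0.00013) and 0.37 for high PAC (95% interval 0.14 to 0.60, adjusted p = 0.04). The high PAC call was lost whichever of its 6 arrays was left out (adjusted p = 0.078 to 0.1), after quantile normalization (0.15), with only the compared groups (0.21) and with the replicate number as a block (0.057). These are transcript signals and not secreted TNF.

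Receptors of TNF moved in opposite directions with medium PAC. Tnfrsf1a was at 13.74, 13.51 and 13.55 in medium PAC + LPS arrays, below the 14.19, 14.15 and 14.10 of LPS arrays (difference -0.54, 95% interval -0.85 to -0.23, adjusted p = 0.015). Tnfrsf1b averaged 16.09 ± 0.11 (SD, n = 3), with every array above the 15.48, 15.79 and 15.61 of LPS arrays (difference 0.47, 95% interval 0.17 to 0.77, adjusted p = 0.032). Neither held throughout: Tnfrsf1a lost its call without medium PAC + LPS replicate 2 or 3 (adjusted p = 0.06 and 0.052), and Tnfrsf1b without LPS replicate 1 or 3 or medium PAC + LPS replicate 1 or 3 (adjusted p = 0.066 to 0.14). With only the compared groups fitted, both missed the threshold (0.069 and 0.14).

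Another 3 genes passed with medium PAC + LPS. Tnfrsf12a had 8.83, 8.98 and 9.11 against 8.20, 8.10 and 8.53 in LPS arrays (difference 0.70, adjusted p = 0.016), a call lost without LPS replicate 1 or 2 or medium PAC + LPS replicate 3 (adjusted p = 0.058 to 0.076). Tnfrsf8 (CD30, a receptor of activated lymphocytes) had 6.28, 6.07 and 6.09 against 4.89, 4.63 and 5.14 (difference 1.26, adjusted p = 0.019), a call lost without LPS replicate 2 or medium PAC + LPS replicate 1 (adjusted p = 0.078 and 0.065). The third was Tnfsf18 (GITR ligand), whose arrays overlapped (5.33, 4.21 and 3.44 against 2.41, 3.74 and 3.07) and whose means of 4.33 and 3.07 were below the silent level. Its adjusted p of 0.032 became 0.06 to 0.21 without LPS replicate 1 or 3 or medium PAC + LPS replicate 1 or 2. With only the compared groups fitted, Tnfrsf12a (0.058) and Tnfsf18 (0.22) lost their calls.

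With high PAC + LPS the remaining calls were on receptors below the silent level. Tnfrsf18 (GITR) had 4.75, 3.76 and 5.29 against 3.70, 3.28 and 3.28 in LPS arrays (adjusted p = 0.0051), so that 2 of its arrays were above the silent level and the mean of 4.60 was not. This call was lost when only the compared groups were fitted (adjusted p = 0.18). Tnfrsf11b had 4.15, 4.19 and 3.46 against 2.96, 3.07 and 3.21 (adjusted p = 0.037), and lost its call without any LPS replicate or without high PAC + LPS replicate 1 or 2 (adjusted p = 0.065 to 0.13), and with only the compared groups (0.12). Tnfrsf9 and Tnfsf15, which had risen with LPS, passed in no comparison of a PAC with LPS against LPS alone. Tnfsf15 stood at 9.98, 9.21 and 9.31 with high PAC + LPS and 10.49, 10.22 and 10.22 with LPS alone, a difference of -0.81 with a 95% interval of -1.37 to -0.24 and an adjusted p of 0.065.

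**Figure D3:**
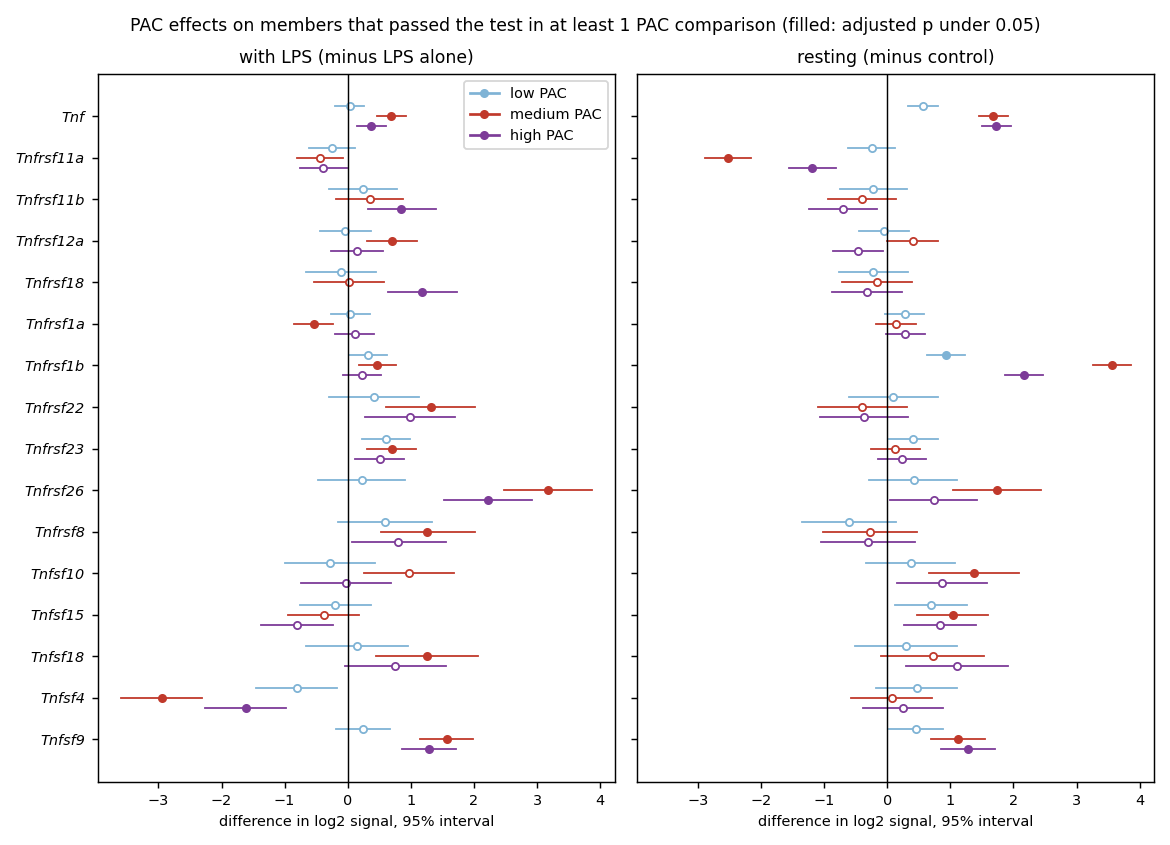
Difference in log2 signal with its 95% interval for the 16 members that passed in at least 1 PAC comparison, for low, medium and high PAC with LPS minus LPS alone (left) and resting minus control (right), filled where the adjusted p was under 0.05. All points of Tnfsf9 lie right of 0 in both states, Tnfrsf26 reaches 3.17 with medium PAC and LPS, and Tnfsf4 reaches -2.95 in the left panel only.

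The 3 fractions differ in mean degree of polymerization and were given at equal mass, so 6 pairs of them were compared directly, with p-values adjusted over all features and also over the 6 pairs together. In resting cells medium and low PAC differed in 5 of the 30 genes (8.74% of all features), high and low PAC in 4 (4.88%) and medium and high PAC in 3 (2.27%), which became 4, 5 and 3 over the 6 pairs. Medium PAC was above low PAC in Tnfrsf1b by 2.63 (95% interval 2.33 to 2.93, adjusted p = 2.2e-10 by limma over the 6 pairs) and in Tnf by 1.12 (adjusted p = 1e-06), and below it in Tnfrsf11a (-2.28, adjusted p = 3.5e-08). High PAC was above low PAC in Tnfrsf1b by 1.24 (adjusted p = 6.8e-06) and in Tnf by 1.17 (adjusted p = 5.7e-07), and below it in Tnfrsf11a (-0.94, adjusted p = 0.0017). Medium and high PAC differed in Tnfrsf1b (1.40, 95% interval 1.10 to 1.70, adjusted p = 1.4e-06) and Tnfrsf11a (-1.34, 95% interval -1.71 to -0.96, adjusted p = 3.8e-05). No difference between them was shown for Tnf, at -0.05 with a 95% interval of -0.28 to 0.19, or for Tnfsf9, at -0.16 with an interval of -0.59 to 0.26.

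The other resting calls were less steady. Tnfrsf26 was higher with medium than low PAC by 1.33 (adjusted p = 0.016 over the 6 pairs), lost without low PAC replicate 1 or medium PAC replicate 2 (adjusted p = 0.077 and 0.069). Tnfsf9 was higher with high than low PAC by 0.83 (adjusted p = 0.014 over the 6 pairs), lost without low PAC replicate 1 or 3 or high PAC replicate 1 (adjusted p = 0.064 to 0.12), while its difference of 0.67 between medium and low PAC missed the threshold over the 6 pairs (adjusted p = 0.055). Tnfrsf12a was higher with medium than high PAC by 0.87 (adjusted p = 0.0064 over the 6 pairs), lost without medium PAC replicate 1 or 3 or high PAC replicate 2 or 3 (adjusted p = 0.051 to 0.088). Tnfrsf10b was the gene that passed between high and low PAC over the 6 pairs alone (7.16 against 6.41, adjusted p = 0.048), with an adjusted p of 0.059 within its own comparison. Leaving out the 3 arrays high in Il1b left high PAC with replicate 1 alone, so no call is drawn from it. The difference was then -0.83 for Tnfrsf11a between high and low PAC, and 0.63 for Tnfrsf12a between medium and high PAC. With only the compared groups fitted, the calls of Tnfsf9 (0.12 for medium and 0.13 for high against low PAC) and of Tnfrsf12a (0.094) were lost.

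With LPS, medium and low PAC differed in 7 of the 30 genes (12.5% of all features), high and low PAC in 3 (6.99%) and medium and high PAC in 3 (5.37%), and the same numbers passed over the 6 pairs. Medium PAC + LPS was above low PAC + LPS in Tnfrsf26 (2.95, 95% interval 2.26 to 3.64, adjusted p = 4.4e-06 over the 6 pairs), Tnfsf9 (1.33, adjusted p = 0.00018) and Tnf (0.66, adjusted p = 0.00055), and below it in Tnfsf4 (-2.14, adjusted p = 8.9e-05) and Tnfrsf1a (-0.58, adjusted p = 0.019). High PAC + LPS was above low PAC + LPS in Tnfrsf26 by 2.01 (adjusted p = 0.0004) and in Tnfsf9 by 1.05 (adjusted p = 0.0021). Medium PAC + LPS was below high PAC + LPS in Tnfrsf1a by -0.66 (95% interval -0.97 to -0.35, adjusted p = 0.0075) and in Tnfsf4 by -1.33 (95% interval -1.97 to -0.69, adjusted p = 0.0092). As Tnfsf4 lay below the silent level in medium PAC + LPS cells, its falls counted to that level were at least 1.94 against low and at least 1.13 against high PAC + LPS. The call against high PAC + LPS was lost without medium PAC + LPS replicate 2 or high PAC + LPS replicate 2 (adjusted p = 0.065 and 0.068). Between these 2 fractions Tnfrsf26 (0.94, 95% interval 0.25 to 1.63), Tnf (0.32, 0.09 to 0.55) and Tnfsf9 (0.28, -0.15 to 0.70) did not pass.

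In the same pairs Tnfrsf12a was higher with medium than low PAC (0.74, adjusted p = 0.022 over the 6 pairs), lost without low PAC + LPS replicate 1 or medium PAC + LPS replicate 3 (adjusted p = 0.082 and 0.06), and Tnfsf10 likewise (1.25, adjusted p = 0.028 over the 6 pairs), lost without low PAC + LPS replicate 2 or medium PAC + LPS replicate 1 (adjusted p = 0.11 in both). Tnfrsf18 passed for high PAC against low and for medium against high PAC with LPS, with every group mean below the silent level, and the second of these calls was lost without high PAC + LPS replicate 3 (adjusted p = 0.07). When only the 2 groups of a pair were fitted, the calls lost with LPS were Tnfrsf1a (adjusted p = 0.066 against low and 0.13 against high PAC), Tnfrsf12a (0.067) and Tnfsf10 (0.089) for medium PAC, Tnfsf4 between medium and high PAC (0.1), Tnfrsf26 between high and low PAC (0.086) and both calls of Tnfrsf18 (0.18 for high against low and 0.27 for medium against high PAC).

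Whether the effect of a fraction differed between LPS-treated and resting cells was tested as an interaction, the effect with LPS minus the effect at rest. It passed in 6 of the 30 genes for medium PAC (6.29% of all features), in 6 for high PAC (1.91%) and in 0 for low PAC (0% by limma, with 5 genes at an unadjusted p under 0.05). Here too the share of all features at the unadjusted p was not counted, and nothing is drawn from the 5. For medium PAC the interaction was -3.10 in Tnfrsf1b (95% interval -3.52 to -2.67, adjusted p = 5.9e-09), whose rise was 0.47 with LPS and 3.56 at rest. It was 2.08 in Tnfrsf11a (95% interval 1.55 to 2.61, adjusted p = 1.3e-05), which fell by 2.52 at rest and differed by -0.44 with LPS. Tnf had an interaction of -0.99 (adjusted p = 0.0003), with a rise of 0.69 with LPS and of 1.68 at rest. Tnfsf4 had one of -3.02 (adjusted p = 9.8e-05), its fall being seen with LPS, where it was above the silent level, while at rest it was below that level in both groups. It was below it in medium PAC + LPS cells too, so the size of this interaction is not exact. For high PAC the interaction was -1.94 in Tnfrsf1b (adjusted p = 1.4e-05) and -1.36 in Tnf (adjusted p = 4.6e-05). For Tnfsf9 it was 0.45 with medium PAC (95% interval -0.16 to 1.05) and 0.01 with high PAC (95% interval -0.60 to 0.61), and neither passed. LPS alone already put Tnfrsf1b at 15.62 and Tnf at 17.48, in a table whose highest value was 19.26. Whether signals are compressed at that height was not tested.

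Genes that work with the family were counted from 5 lists. Of 13 measured family members with other symbols, 4 were higher and 1 lower with LPS than in control cells, led by Cd40 (15.17 in LPS and 5.16 in control cells, difference 10.01), the receptor of CD40 ligand, and Fas (12.84 and 5.13, difference 7.71), a death receptor. With medium PAC + LPS, 0 were higher and 3 lower than with LPS alone, among them Eda2r (4.97 against 9.56, difference -4.58, adjusted p = 1.7e-06), a receptor of ectodysplasin A2, and Fas (11.01 against 12.84, difference -1.83, adjusted p = 0.00015). Of 12 adaptors and ubiquitin ligases, 6 were higher and 4 lower with LPS, led by Traf1 (difference 5.42) and Traf5 (4.08), both TRAF adaptors. With medium PAC + LPS only Birc3, the ligase cIAP2, passed (-0.62, adjusted p = 0.0035).

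Of 14 feedback inhibitors, 11 were higher and 1 lower with LPS, led by Tnfaip3 (16.51 in LPS and 7.67 in control cells, difference 8.84), which encodes the ubiquitin-editing enzyme A20, and Zfp36 (16.72 and 10.61, difference 6.11), which encodes tristetraprolin, a protein that promotes decay of Tnf mRNA. With medium PAC + LPS, 0 were higher and 6 lower than with LPS, with the largest falls in Tnip3 (-1.44, adjusted p = 1.8e-09) and Tnip2 (-1.26, adjusted p = 0.0027), both A20-binding proteins. Zfp36, singled out after its values were seen, was in the same comparison at 15.81 against 16.72 (difference -0.91, adjusted p = 0.0015). Whether this fall bears on the Tnf signal was not tested. Of 8 death signalling genes, 5 were higher and 3 lower with LPS, led by Mlkl (4.70), the effector of necroptosis, and Daxx (4.14), and 3 were higher and 0 lower with medium PAC + LPS, led by Bid (1.95, adjusted p = 2.3e-08), a substrate of caspase 8, and Fadd (1.67, adjusted p = 6.6e-05), the death domain adaptor. Of 14 shedding proteases and NF-kB kinases, 6 were higher and 4 lower with LPS, led by Ikbke (5.23), a kinase, and Rhbdf2 (4.71), a partner of the protease that sheds TNF. With medium PAC + LPS, 1 was higher and 4 lower, led by the kinase Map3k14 (-0.95, adjusted p = 0.033) and the kinase-binding protein Tab2 (-0.76, adjusted p = 0.00012). Shares over all features for these 2 comparisons were those given above.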

How the data were processed

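RNA of the 24 samples was labelled and hybridised to Clariom S mouse arrays and analysed in Transcriptome Analysis Console, per the study's methods. The authors deposited 1 table of log2 values per feature and array. No source used here names its summarisation, background correction or software version. The deposited values reach 19.26, and differences are given on their scale. The number of arrays limits the precision. Groups were taken from sample titles, and 6640 control features were left out. Symbols came from the platform table for 19572 features, and coordinates and promoters from RefSeq tables (GRCm38.p6).

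A single limma 3.58.1 model (R 4.3.3) with 8 group means and 16 residual degrees of freedom gave two-sided p-values, adjusted by Benjamini-Hochberg over 22206 features in each comparison, with calls at an adjusted p under 0.05. Genes were named by 1 rule: members that passed in a comparison with their own control are given by array in at least 1 such comparison, and the 2 largest called changes of each list for LPS and for medium PAC + LPS. Cell type markers, Il1b and, for medium PAC + LPS, Zfp36 were named outside this rule. The members and lists were chosen with earlier results of these data known. Alternatives were a filter at the silent level, quantile normalization, only the compared groups, a variance trend with robust prior, the replicate number as a block, each array left out in turn, other silent levels and, chosen after seeing the data, 3 arrays left out.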

Additional observations from a re-analysis of the deposited data

Results flagged for a closer look

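The results set out here are those in which the effect of a PAC fraction with LPS differed from its effect in resting cells by limma's interaction test (effect with LPS minus effect at rest, adjusted over 22206 features). For medium PAC the interaction was -3.10 for Tnfrsf1b, 2.08 for Tnfrsf11a, -3.02 for Tnfsf4 and -0.99 for Tnf, and for high PAC it was -1.94 for Tnfrsf1b and -1.36 for Tnf. Each of these 6 kept an adjusted p under 0.05 whichever of its 12 arrays was left out.

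The other 6 depended on single arrays. Tnfrsf22 with medium PAC (1.70, adjusted p = 0.036) kept its call only when control replicate 3, LPS replicate 2 or medium PAC + LPS replicate 2 was the array left out (adjusted p up to 0.1). Tnfsf15 with medium PAC (-1.42, adjusted p = 0.029) lost it without control replicate 1, medium PAC replicate 1 or 2, LPS replicate 1 or medium PAC + LPS replicate 1 or 3 (adjusted p = 0.064 to 0.077). Tnfsf15 with high PAC (-1.65, adjusted p = 0.027) lost it without control replicate 1, high PAC replicate 2 or 3, LPS replicate 1 or high PAC + LPS replicate 2 or 3 (adjusted p = 0.065 to 0.077). For Tnfsf15 the resting groups were below the silent level, so the resting side of each interaction is a difference between silent signals (3.76 in medium PAC, 3.56 in high PAC and 2.73 in control cells), while the LPS-treated groups lay above it (9.93 with medium PAC, 9.50 with high PAC and 10.31 with LPS alone).

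Tnfsf4 with high PAC (-1.87, adjusted p = 0.027) kept its call only without control replicate 3, high PAC replicate 2, LPS replicate 1 or high PAC + LPS replicate 2 (adjusted p up to 0.079). Tnfrsf11b with high PAC (1.55, adjusted p = 0.027) kept it only without control replicate 2, high PAC replicate 3, LPS replicate 3 or high PAC + LPS replicate 3 (adjusted p up to 0.082). Tnfrsf18 with high PAC (1.50, adjusted p = 0.04) kept it only without high PAC replicate 3, LPS replicate 1 or high PAC + LPS replicate 2 (adjusted p up to 0.11). Tnfrsf11b and Tnfrsf18 had means below the silent level in all 4 groups of the test. Without the 3 resting arrays high in Il1b, the call of Tnfrsf22 with medium PAC (adjusted p = 0.081) was lost. That setting leaves resting high PAC with replicate 1 alone, so no high PAC call is drawn from it. The high PAC interactions were then -1.88 for Tnfsf4, -1.42 for Tnfsf15, 1.54 for Tnfrsf11b and 1.48 for Tnfrsf18. With only the compared groups fitted, the calls of Tnfrsf22 with medium PAC (adjusted p = 0.089) and of Tnfrsf11b (0.082) and Tnfrsf18 (0.2) with high PAC were lost.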

How the results depend on the processing

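None of the 80 called member values changed sign under quantile normalization or with arrays left out. The other settings keep each difference of group means as it is, so no sign could change under them. Fitting only the compared groups lost 24 of the 80, the variance trend with robust prior 1, quantile normalization 3 and the replicate block 2, and leaving out an array lost 110 of 552. The filter at the silent level lost 0 of the 72 it could test. It keeps a gene that is high in any group and leaves fewer features to adjust over, 12710, so this is no check of the calls. With only the compared groups, the number of members called was 0 for low PAC against control, 5 for medium PAC + LPS and 3 for high PAC + LPS against LPS, 1 for high PAC + LPS against low PAC + LPS and 0 for medium PAC + LPS against high PAC + LPS. This fit has fewer arrays to estimate the spread. For low PAC against control it was 2 with the silent-level filter, with quantile normalization and with the trend and robust prior. The last also gave 5 for medium PAC + LPS against high PAC + LPS and 1 for the low PAC interaction. Leaving out the 3 arrays high in Il1b, a setting chosen after seeing the data, left high PAC with replicate 1 alone. No count of called members is given for high PAC under it. The cause of these shifts was otherwise not tested.

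Leaving out single arrays gave 13 to 14 called members for LPS against control, 0 to 1 for low PAC, 5 to 7 for medium PAC and 4 to 6 for high PAC. Against LPS it gave 0 to 0 for low PAC + LPS, 6 to 10 for medium PAC + LPS and 4 to 6 for high PAC + LPS. The pairs gave 3 to 5 (medium against low PAC), 3 to 4 (high against low), 2 to 3 (medium against high), 6 to 8, 3 to 4 and 2 to 3 (the same with LPS), and the interactions 0 to 0, 4 to 6 and 2 to 4 for low, medium and high PAC. Over the comparisons, same-numbered arrays deviated together with correlations of -0.08 to 0.13. No clear pairing by replicate number was seen, which with 3 arrays per group does not show that there was none. With the replicate block the lost calls were Tnf in high PAC + LPS against LPS (adjusted p = 0.057) and Tnfsf9 in medium against low PAC (0.061). After quantile normalization the median difference of all features lay between -0.02 and 0.02. Signals near the silent level carry no order.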
